A study of Mus musculus with 12 samples.

Results

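Intervals that carried a peak of the promoter mark H3K4me3 in the lateral ganglionic eminence (LGE) and in no other dissected region numbered 326 of 29785 union intervals, or 1.09%. Union intervals were obtained by merging the peaks of 4 lists, 1 for each dissected region, wherever they overlapped or touched. Intervals were selected on the presence and absence of peaks alone. An interval was kept when it held a peak of the LGE list and no peak of the lists of the medial ganglionic eminence (MGE), the caudal ganglionic eminence (CGE) or the cortex (CTX). Each of the 326 intervals was made of 1 LGE peak, so 1.89% of the 17284 LGE peaks were of this kind. The other lists held 25339 peaks in MGE, 17752 in CGE and 21442 in CTX.

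The tissue came from wild-type C57BL/6J embryos, which the study dissected for this assay at E12.5 (the protocol in the labels names E12.5 and E14.5 without tying an age to a region). All 4 regions shared strain and genotype, and none was treated. CUT&Tag, in which an antibody directs a transposase to chromatin carrying the mark, was run on nuclei pooled from several embryos, with 2 biological replicates for each region. The labels list 12 libraries, of which 2 were from LGE, 3 from MGE, 3 from CTX and 4 from CGE. Replicates were merged before peaks were called, so no value below has a replicate error, no difference between regions could be tested, and the lists carry no read count behind a peak. The depths that the study states per library are lowest for MGE and highest for CGE among the eminences, with LGE between, and the part of depth in which peaks were listed was not tested. The 95% intervals given beside shares (Wilson) and medians (order statistics) cover counting only. The protocol also speaks of nuclei of the regions being combined in equal numbers, without saying whether within or across regions, and its part in the lists was not tested.

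Trimethylation of histone H3 at lysine K4 is deposited around the start sites of active and poised genes, most densely at promoters rich in CpG, and weaker peaks are also found at enhancers and inside genes. The LGE is the ventral proliferative zone that gives rise to the projection neurons of the striatum and to interneurons of the olfactory bulb, and it lies between the MGE and the cortex. Promoter here means the 2 kb upstream of any annotated transcription start site (TSS). Of marker genes of the LGE, Gsx2, Ebf1, Isl1 and Sp8 all had a promoter peak in the LGE list, but these 4 genes had one in each of the other 3 lists as well. The MGE markers Nkx2-1, Lhx6 and Lhx8 had promoter peaks in the MGE, LGE and CGE lists and none in the CTX list. Of 4 cortical markers, Tbr1 and Eomes had a promoter peak in every list, Emx1 in the LGE and CTX lists only, and Neurod6 in none. The CGE markers Nr2f2 and Prox1 had one in every list. No eminence marker checked set LGE apart from MGE or CGE, and the cortical marker Emx1 did.

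The DNA under selected intervals is given first, because the intervals differed mainly in where they lay and in their CpG content. Bases are from the RefSeq copy of GRCm38, plus strand, 5′ to 3′, over the central 300 bp of each interval, in lower case with each CpG in capitals. Dnajc1, Neurod6 and Arhgef16 are shown as the most significant intervals whose window held no untranslated bases of a gene, Tnc and Cerkl as intervals at promoters of protein-coding genes, and Pou3f3, Alx1 and Foxd3 as the next most significant after Neurod6 of those nearest to developmental transcription factor genes.
Dnajc1, chr2:18315753-18316052: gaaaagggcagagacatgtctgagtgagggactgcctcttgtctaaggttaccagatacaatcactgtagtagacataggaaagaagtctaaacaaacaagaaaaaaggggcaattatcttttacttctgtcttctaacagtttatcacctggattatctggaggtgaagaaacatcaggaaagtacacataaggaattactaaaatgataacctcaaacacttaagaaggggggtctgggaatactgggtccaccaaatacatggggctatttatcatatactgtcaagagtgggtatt
Neurod6, chr6:55678712-55679011: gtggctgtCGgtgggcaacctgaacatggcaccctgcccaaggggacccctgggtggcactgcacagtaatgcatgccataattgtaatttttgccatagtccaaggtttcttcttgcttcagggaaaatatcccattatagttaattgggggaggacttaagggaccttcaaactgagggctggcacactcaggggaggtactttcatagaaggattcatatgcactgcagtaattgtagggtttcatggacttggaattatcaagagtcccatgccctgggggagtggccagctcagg
Arhgef16, chr4:154312159-154312458: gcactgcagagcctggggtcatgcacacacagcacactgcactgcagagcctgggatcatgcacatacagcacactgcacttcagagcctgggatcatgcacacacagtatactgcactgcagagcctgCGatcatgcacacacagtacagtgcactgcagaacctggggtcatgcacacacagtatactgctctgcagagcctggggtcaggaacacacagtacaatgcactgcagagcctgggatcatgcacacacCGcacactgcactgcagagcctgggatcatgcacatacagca
Tnc, chr4:64046206-64046505: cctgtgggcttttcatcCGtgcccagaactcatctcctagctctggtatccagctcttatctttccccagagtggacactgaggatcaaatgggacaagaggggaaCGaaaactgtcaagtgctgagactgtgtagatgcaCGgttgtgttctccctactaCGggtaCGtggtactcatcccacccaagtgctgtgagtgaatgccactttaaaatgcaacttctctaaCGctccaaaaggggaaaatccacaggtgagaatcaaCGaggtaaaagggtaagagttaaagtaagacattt
Cerkl, chr2:79428665-79428964: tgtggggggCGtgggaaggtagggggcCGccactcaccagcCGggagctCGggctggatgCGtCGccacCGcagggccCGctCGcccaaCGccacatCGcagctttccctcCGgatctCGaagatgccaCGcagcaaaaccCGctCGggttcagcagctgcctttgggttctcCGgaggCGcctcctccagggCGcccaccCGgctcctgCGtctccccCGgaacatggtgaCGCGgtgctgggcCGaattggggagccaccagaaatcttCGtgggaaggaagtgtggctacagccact
Pou3f3, chr1:42709205-42709504: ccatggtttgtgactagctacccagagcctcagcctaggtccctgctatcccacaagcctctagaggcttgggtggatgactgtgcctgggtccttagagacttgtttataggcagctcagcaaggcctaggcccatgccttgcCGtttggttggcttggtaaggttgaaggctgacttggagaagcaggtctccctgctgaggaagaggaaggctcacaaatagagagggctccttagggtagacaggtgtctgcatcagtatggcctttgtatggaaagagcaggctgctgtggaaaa
Alx1, chr10:103028116-103028415: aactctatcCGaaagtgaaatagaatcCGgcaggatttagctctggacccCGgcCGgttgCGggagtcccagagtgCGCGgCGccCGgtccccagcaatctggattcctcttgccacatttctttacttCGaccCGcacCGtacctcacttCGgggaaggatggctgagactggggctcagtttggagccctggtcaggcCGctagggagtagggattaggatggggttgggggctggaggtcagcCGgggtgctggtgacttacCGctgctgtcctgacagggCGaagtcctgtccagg
Foxd3, chr4:99663146-99663445: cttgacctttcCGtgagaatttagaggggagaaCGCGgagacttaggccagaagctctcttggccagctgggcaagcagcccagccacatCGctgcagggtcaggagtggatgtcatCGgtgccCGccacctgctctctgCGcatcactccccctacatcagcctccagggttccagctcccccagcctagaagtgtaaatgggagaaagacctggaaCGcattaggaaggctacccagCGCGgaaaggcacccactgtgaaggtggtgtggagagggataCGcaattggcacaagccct

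The Dnajc1 window, inside an intron, held no CpG at all and had a GC content of 39.3%. The Neurod6 and Pou3f3 windows each held 1 CpG. The Arhgef16 window consisted largely of a short motif repeated in tandem and held 2 CpGs. By contrast the Cerkl window held 26 CpGs at a GC content of 67.7%, and the Alx1 window held 17 at 60.7%. The Tnc window held 7. The Tnc and Cerkl intervals touched promoters, but their centres fell in an intron and in coding sequence.

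The LGE-alone intervals were narrow and weak by the measures of the peak calls that chose them, which are given here as a description. Their median width was 375 bp (355 to 399; range 243 to 2038), against 1168 bp over the whole LGE list. The peak caller's fold enrichment had a median of 3.18 and ran from 1.61 to 5.15, and all 326 values lay below the list median of 5.63. Significance, as −log10 of the q-value, had a median of 1.99 and ran from 1.02 to 7.56, and again all 326 lay below the list median of 40.0. A −log10 q of at least 5 was reached by 12 intervals, 163 stayed below 2, and 18 were at least 1000 bp wide. The intervals thus came from the weak tail of the LGE list. Peaks of LGE in intervals shared by all 4 lists had a median fold of 6.00 and a median −log10 q of 50.7.

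**Figure D1:**
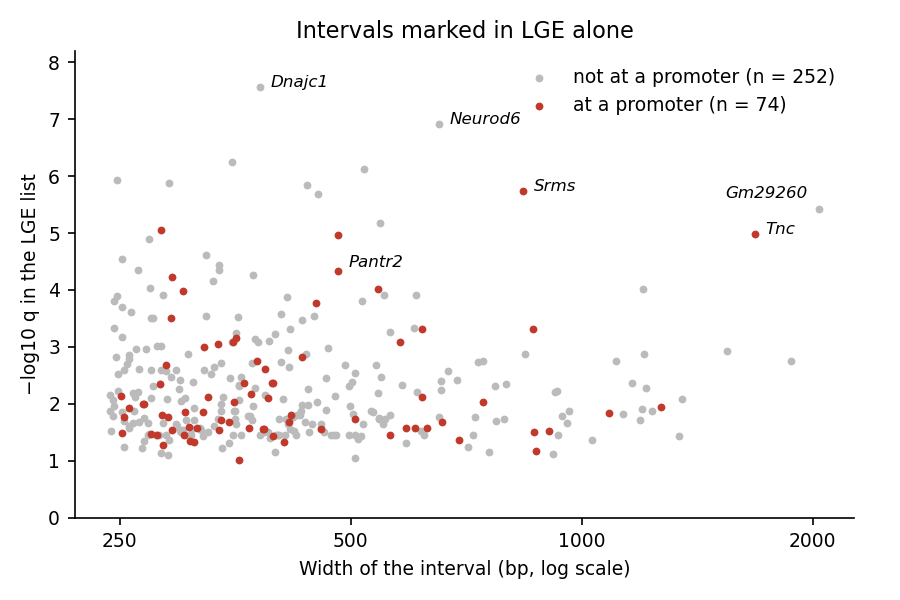
Each point is 1 of the 326 intervals marked in LGE alone, placed by its width in bp (log axis) and its −log10 q in the LGE list; red points lie at a promoter. Most intervals sit under 500 bp and under a −log10 q of 5, and the intervals at promoters are spread through the same range as the others.

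The interval of highest significance and highest fold lay in an intron of Dnajc1, which encodes a chaperone of the endoplasmic reticulum (chr2:18315713-18316093, 381 bp, fold 5.15, −log10 q 7.56). Its nearest peak in the CTX list lay 861 bp away, with a fold of 7.99, while the nearest peaks of MGE and CGE lay 75897 and 75657 bp away at another site. Next came Neurod6, which encodes a bHLH factor of cortical glutamatergic neurons (chr6:55678536-55679187, 652 bp, fold 3.75, −log10 q 6.91). This interval covered coding sequence of the gene, 2076 bp downstream of its TSS. Each of the 4 lists, LGE included, had a separate peak 1174 to 1332 bp further from the TSS, with a −log10 q of 8.40 in LGE, 8.61 in CGE, 3.16 in MGE and 2.01 in CTX. No list had a peak at the promoter of Neurod6.

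Kndc1, a guanine nucleotide exchange factor gene expressed in neurons, held the third interval in an intron, with a fold of 4.94 and a −log10 q of 6.24. The intervals near Arhgef16, another exchange factor gene (fold 4.91, −log10 q 6.13), and Emp1, which encodes an epithelial membrane protein (fold 4.87, −log10 q 5.93), were intergenic. The Arhgef16 interval lay 10373 bp from the nearest TSS and the Emp1 interval 77303 bp. For Arhgef16 a CTX peak was 822 bp away, whereas no other list had a peak within 66925 bp of the Emp1 interval. Ifnz, an interferon gene, held an interval 172 bp past its TSS (fold 4.84, −log10 q 5.88), and Map2k6, a kinase gene of the p38 pathway, held one 791 bp past a TSS (fold 4.35, −log10 q 5.18). Of the 15 most significant intervals, those of Srms, Lrrc15, Tnc and Pde4b lay at promoters.

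The widest interval, 2038 bp, was intergenic on chromosome 1, 36661 bp from the TSS of the lincRNA gene Gm29260 and 937509 bp from the nearest protein-coding TSS (fold 3.74, −log10 q 5.43). No peak of any other list lay within 65314 bp of it. An intron of Rnf220, which encodes a ubiquitin ligase, held the next (1876 bp, fold 3.57, −log10 q 2.75), followed by the Tnc interval. Others among the 10 widest lay near the homeobox genes Nkx2-3 (1338 bp) and Dmbx1 (1236 bp). Widths of 1205 to 1547 bp were found for 4 more, near Gm5857, Gm27805, Gm26485 and Mir7230. Wide intervals were not the most significant ones, since only Gm29260 and Tnc among these 10 were also among the 15 of highest −log10 q.

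Most intervals lay away from start sites. The median distance to the nearest annotated TSS was 5040 bp (3532 to 6681). A TSS fell inside 42 intervals (12.9%, 9.67 to 17.0), 78 lay within 2 kb of one, 93 lay 2 to 10 kb away, 109 lay 10 to 100 kb away and 4 lay farther. Among the 78 within 2 kb, 54 lay downstream of the TSS and 24 upstream. The centre of the interval fell in an intron in 150 cases, between genes in 118, in coding sequence in 23, in an untranslated region in 20 and in an exon of a noncoding transcript in 15. The nearest TSS belonged to a protein-coding gene for 206 intervals, a lincRNA for 37, a processed pseudogene for 24, a miRNA for 16 and an antisense transcript for 12.

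The other sets found by the same rule were placed differently along this scale. CGE-alone intervals (547) held a TSS in 19.2% of cases (16.1 to 22.7) and lay at a median of 2321 bp. MGE-alone (6562) and CTX-alone (3571) intervals held a TSS in 2.22% and 4.09%, at medians of 10600 and 9441 bp. Intervals of all 4 lists (14826) held a TSS in 85.3%. In the lists as deposited, LGE-alone intervals were therefore closer to start sites than those of MGE or CTX alone and farther than those of CGE alone. Widths followed the lists themselves: the narrowest peak was 243 bp in the LGE list and 242 bp in the CGE list but 114 bp in MGE and 122 bp in CTX, and the medians were 393 bp for CGE alone, 167 bp for MGE alone and 193 bp for CTX alone. Widths can therefore be set side by side between LGE and CGE only. Whether an interval holds a TSS depends in part on its width, and the values for MGE alone and CTX alone were not adjusted for it.

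**Figure D2:**
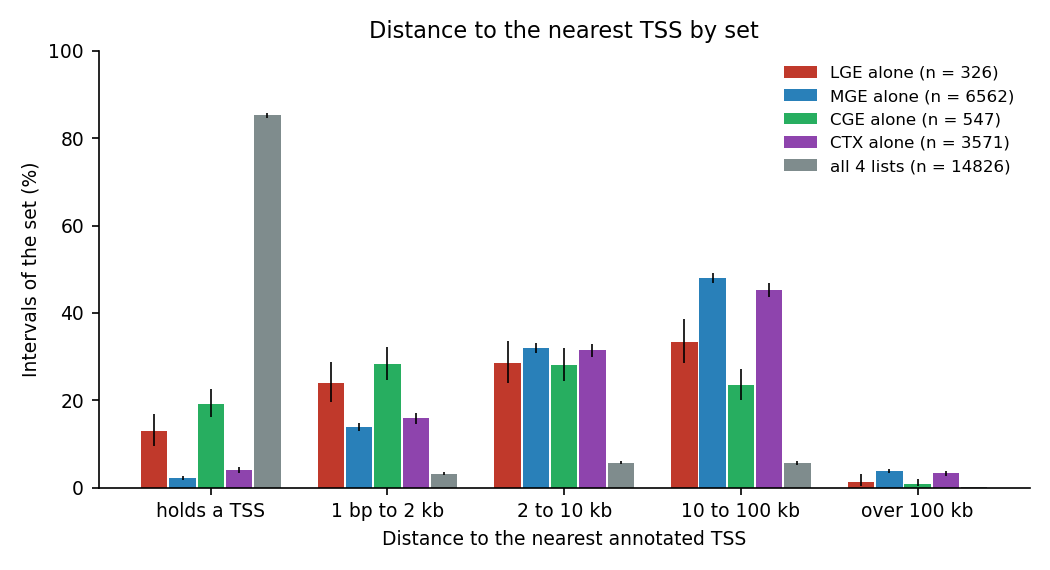
Bars give the percentage of each set of intervals in 5 classes of distance to the nearest annotated TSS, with Wilson 95% intervals that cover counting only. Of the LGE-alone intervals 12.9% held a TSS, between the 19.2% of CGE alone and the 4.09% of CTX alone, while 85.3% of intervals in all 4 lists did.

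At promoters, 74 of the 326 intervals were found (22.7%, 18.5 to 27.5). The share was 32.9% in CGE alone, 12.4% in CTX alone, 9.52% in MGE alone and 86.7% in all 4 lists. The order of LGE alone and CGE alone depended on list size. With lists limited to equal size the shares were 31.3% for LGE alone and 27.7% for CGE alone. A protein-coding gene was among the genes at 58 of the 74 (78.4%, 67.7 to 86.2), 7 had a lincRNA and no protein-coding gene, and 9 had other gene types alone. Intervals at promoters were of similar strength to the rest, since the median fold was 3.09 at promoters and 3.19 elsewhere, and the median −log10 q was 1.85 and 2.06. Together the 74 intervals touched promoters of 82 genes, 0.148% of the 55450 annotated genes, and of 60 protein-coding genes, 0.273% of 21951. For 51 of the 82 genes no other list had a peak at any promoter of the gene, and for 23 all 4 lists had one, since many genes have several start sites. Among protein-coding genes these numbers were 33 and 22 of 60, and among lincRNA genes 7 of 8 were marked in LGE only. Of all protein-coding genes, 56.7% had a promoter peak in all 4 lists, and the share marked in LGE only was not counted. The interval itself could supply the LGE mark, and it was chosen for lacking peaks of the other lists. The counts of genes marked in LGE only therefore follow in part from the selection rule.

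Protein-coding promoters marked in LGE only were led by Srms, which encodes a Src-related tyrosine kinase (chr2:181212366-181213204, 839 bp over the TSS, fold 4.71, −log10 q 5.74). The nearest peaks of MGE and CGE lay 6544 bp from it and that of CTX 55294 bp. Tnc, which encodes the extracellular matrix protein tenascin C of radial glia and their niche, followed (chr4:64045516-64047196, 1681 bp over the TSS, fold 4.41, −log10 q 4.99). Tnc stood alone on its stretch of chromosome, as the nearest peak of any other list was 443082 bp away in CTX and the nearest of LGE itself 486018 bp away. B4galnt2, a glycosyltransferase gene (fold 4.10, −log10 q 4.01), Tmem232 (fold 4.10, −log10 q 3.99) and Mal, which encodes a proteolipid of myelin and lymphocytes (fold 3.99, −log10 q 3.78), came next. Tmod4, a tropomodulin gene of muscle, had a fold of 3.90 and a −log10 q of 3.50.

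Further protein-coding promoters marked in LGE only, with folds of 1.82 to 3.72, fell into several groups by what the genes encode. Transcription factor genes in this group included Neurod4, Sox17, Hoxc5, Hoxd12, Shox2, Tcf21, Hoxb1, Twist1, Wt1 and Pax1. Their −log10 q ran from 1.02 at Pax1, the lowest of all 326 intervals, to 2.35 at Neurod4. The Hoxc5 interval was centred in coding sequence of Hoxc10, and the nearest CGE peak to the Pax1 interval lay 1999 bp away. Peaks past a TSS do not count as promoter peaks here, so a gene marked in LGE only could hold peaks of other lists. At Twist1 all 4 lists had a separate peak inside the gene, 1033 to 1195 bp from the interval. At Sox17 all 4 had one inside the gene as well, at 3067 to 4389 bp. Receptor and peptide genes were Nmb, which encodes neuromedin B, Ntsr2, a neurotensin receptor gene, and Asgr1, a receptor gene of hepatocytes. Tulp1 acts in photoreceptors, Matn4 encodes a matrix protein, and Degs2 and Fes encode a lipid desaturase and a tyrosine kinase. Noncoding genes marked in LGE only included the lincRNA gene Gm27255 (fold 4.19, −log10 q 4.22) and Mir10a, whose promoter held an interval of 251 bp near Hoxb4 (fold 3.31, −log10 q 2.14).

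At 22 protein-coding genes the MGE, CGE and CTX lists each had a peak elsewhere in the promoters of the same gene. Whether the LGE list had a promoter peak there besides the interval itself was not counted. Pde4b, a cAMP phosphodiesterase gene with 13 annotated start sites, was the strongest (481 bp, fold 4.49, −log10 q 4.97), and the nearest peaks of the other lists were 72262 to 72342 bp away. Zbtb20, a zinc finger gene with 19 start sites (fold 1.93, −log10 q 3.31), Cerkl, a ceramide kinase-like gene with 11 (fold 3.75, −log10 q 3.15), and Col16a1, a collagen gene with 13 (fold 3.59, −log10 q 2.75), were of the same kind. So were Mmp9, Scml4, Fads1, Pxn, Plch2, Cfap77, Igf2, Rsrc1, Gata3, Nrxn2 and Tfap2a. Lrrc15 differed in that MGE and CTX, but not CGE, had peaks at its promoter, 526 and 592 bp from the LGE interval (fold 4.51, −log10 q 5.05).

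Intervals counted as LGE alone could still lie beside peaks of the other lists. The median distance to the nearest peak of another list was 8156 bp, and 41 intervals had one within 1 kb, 114 within 5 kb and 178 within 10 kb. CGE was the nearest list for 153 intervals, MGE for 104 and CTX for 74, with ties counted for each. Within 1 kb, however, MGE peaks stood beside 20 intervals, CTX peaks beside 19 and CGE peaks beside 10. At the edge of the rule, the interval near 1700057H15Rik lay 7 bp from an MGE peak, that in Dscaml1, a cell adhesion gene, 17 bp from an MGE peak, that near Gm24734 49 bp from a CGE peak, that near Gpr37l1 53 bp from a CTX peak and that near Trim80 64 bp from an MGE peak. Just outside it, LGE peaks near Lgr6 and Ddx1 shared 7 bp with a peak of MGE and of CTX, those near Gm12704 and Tox shared 8 and 9 bp with MGE peaks, and one near Gm3227 shared 4 bp with a CTX peak. The folds of these LGE peaks overlapped, at 3.04 to 4.25 inside and 2.98 to 3.73 outside.

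**Figure D3:**
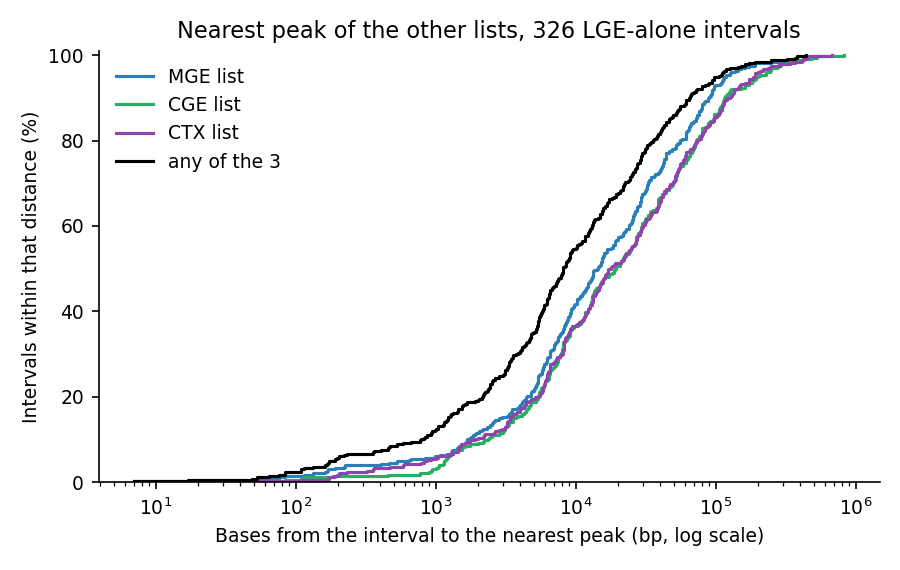
Curves give the cumulative percentage of the 326 LGE-alone intervals that have a peak of the MGE, CGE or CTX list, or of any of the 3, within the distance on the log axis in bp. The curve for any list passes 12.6% at 1 kb, 54.6% at 10 kb and 85.9% at 50 kb.

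All 3 other lists had a peak within 2 kb of 13 intervals, and for 12 of these the LGE list had one there too. Neurod6 was the most significant. The interval nearest to Pou3f3, a POU homeobox gene, touched the promoter of the noncoding gene Pantr2 and had the lowest fold of all (481 bp, fold 1.61, −log10 q 4.33). Its neighbours, 1530 to 1998 bp away, were 2361 bp wide in LGE (fold 3.40), 2805 bp in CGE (fold 3.73), 605 bp in MGE (fold 3.04) and 350 bp in CTX (fold 4.46). An intron of Trim71, a ubiquitin ligase gene of early progenitors, showed the same layout (448 bp, fold 2.42, −log10 q 3.54), with neighbours of 1622 bp in LGE, 1585 bp in CGE, 1482 bp in MGE and 239 bp in CTX. Further intervals of this kind lay near Gm26927, Slc1a3, which encodes the glial glutamate transporter, Igf2, Twist1, Pax2, Rln3, Tnfaip2, Ogfrl1, Gm24049 and Trim80. Their median fold was 2.70, against 3.36 for the 46 intervals with no peak of another list within 50 kb. For 45 of those 46, the LGE list had no other peak within 50 kb either. Along with Tnc, Emp1, Gm29260 and Pde4b, these isolated intervals included Alx1 (fold 4.20, −log10 q 4.26), Mal, Foxd3, Paqr5 and Neurod4.

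The nearest protein-coding genes were 315 in number, 1.44% of 21951, with 304 genes nearest to 1 interval and 11 nearest to 2. For 179 intervals (54.9%) the promoter of that gene was marked in all 4 lists, close to the 56.7% of all protein-coding genes so marked, for 64 in none, and for 33 in LGE only, a count that includes intervals which were themselves the promoter peak. Intervals less than 10 kb apart were found at Olig3 (8278 bp apart), which encodes a bHLH factor of the dorsal hindbrain and spinal cord, Foxf1 (5863 bp) and Thsd4 (2165 bp). The Olig3 intervals lay on either side of a gene whose promoter had no peak in any list, 3338 bp upstream and 4941 bp downstream of its TSS, with folds of 3.15 and 3.42.

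Of 38 listed genes of the LGE and striatal lineage, 2 were nearest to an interval, Dlx2 and Meis2 (5.26%, against 1.44% of all protein-coding genes), and none had one at its promoter. Dlx2 and Meis2 belong to the transcription factor families described below, of whose genes 16.9% were nearest to an interval. The Dlx2 interval, 244 bp wide with a fold of 3.02, lay 66412 bp upstream of the gene and 406 bp from an MGE peak. Meis2 lay 256388 bp from its interval, which was 339 bp wide with a fold of 3.19. Of MGE genes 1 of 16 was nearest to an interval (Gbx2, 2050 bp downstream of the TSS, fold 2.83), of CGE genes 0 of 10, and of cortical genes 2 of 21. The cortical genes included Neurod6, described above. Among lists for cells that a dissection could carry along, 1 of 16 endothelial and mural genes (Sox17), 0 of 16 genes of blood cells and microglia, and 1 of 12 genes of meninges and mesenchyme (Twist1) were nearest. Both of these intervals lay at promoters, with folds of 2.94 and 2.91 and a −log10 q of 2.03 and 1.56. For the diencephalon, hypothalamus and eye, 4 of 15 genes were nearest, namely Irx5, Sim1, Vax1 and Foxa1. These shares, from 0 to 26.7% of a list, stand beside the same 1.44%, and counts of 0 to 4 genes are too small to set the lists apart from each other.

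Developmental transcription factor genes were frequent among the nearest genes. This grouping was made after the intervals had been seen, by gene symbol, and covered 344 homeobox, forkhead, Sox, GATA, T-box, lineage bHLH and AP-2 genes, 1.57% of protein-coding genes. Of the 344, 58 (16.9%) were nearest to an LGE-alone interval, against 1.44% of all protein-coding genes, and 14 (4.07%) had one at a promoter, against 0.273%. In CGE alone 63 (18.3%) were nearest, against 2.33%, and 20 (5.81%) had one at a promoter, against 0.638%. The values were 28.8% against 11.9% and 4.36% against 1.34% in CTX alone. In MGE alone they were 40.7% against 20.2% and 3.49% against 1.86%. By number of genes, LGE alone thus did not exceed CGE alone. Counted by intervals, 64 of 326 (19.6%, 15.7 to 24.3) were nearest to such a gene. The same share was 13.0% (10.4 to 16.1) for CGE alone, 4.93% for CTX alone, 3.86% for MGE alone, 2.00% for all 4 lists and 3.84% for all union intervals. These intervals had a median −log10 q of 1.79, against 2.09 for the others, and they made up 23 of the 163 intervals with a −log10 q of at least 2 (14.1%) and 41 of the 163 below it (25.2%). With peaks of −log10 q under 2 left out of every list, the share was 12.4% for LGE alone and 11.9% for CGE alone. With lists limited to equal size the shares were 18.4% and 7.94%, but LGE was the shortest list and lost no peak. The gap between these 2 sets in shares of intervals was thus found only with the weak LGE peaks included.

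**Figure D4:**
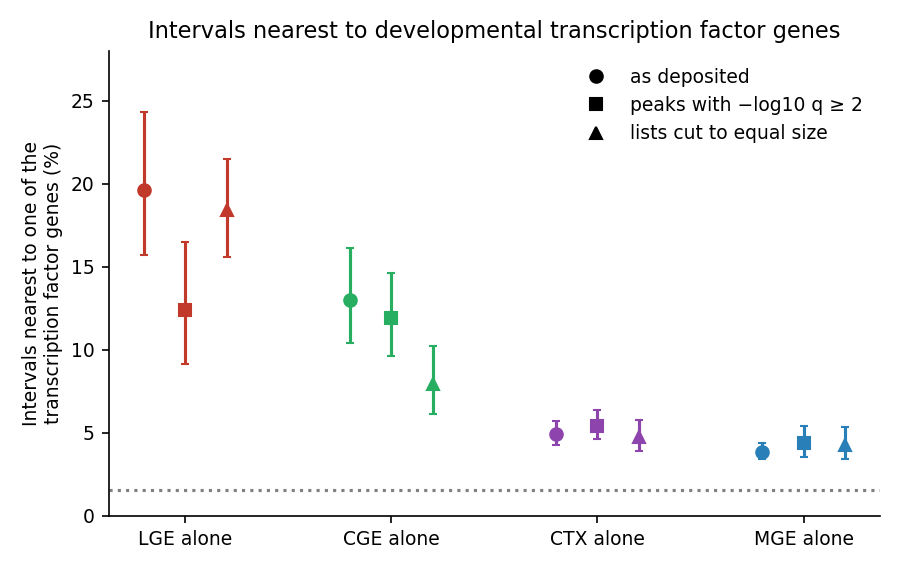
Points give the percentage of the intervals marked in 1 list alone whose nearest protein-coding gene is one of the 344 transcription factor genes, with Wilson 95% intervals that cover counting only, for lists as deposited, peaks with a −log10 q of at least 2, and lists limited to equal size. The LGE-alone and CGE-alone values lie above those of CTX alone and MGE alone under all 3 settings, and the dotted line marks the 1.57% of protein-coding genes that the families make up.

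Homeobox genes, 196 of the 344, accounted for 42 of the 64 intervals. They accounted for 47 of 71 such intervals in CGE alone and 671 of 1143 over all union intervals, so this was not particular to LGE alone. Hox genes, which pattern the hindbrain, spinal cord and limbs, were nearest to 9 intervals (8 of 39 Hox genes), or 2.76% of LGE-alone intervals. The share was 2.01% in CGE alone (11 intervals), 0.107% in MGE alone (7), 0.0560% in CTX alone (2), 0.00674% in all 4 lists (1) and 0.111% of all union intervals (33). The Hox genes nearest to LGE-alone intervals included Hoxd12 (1084 bp over the TSS, fold 3.06, −log10 q 1.84), Hoxb1 (386 bp, 17 bp past the TSS, fold 3.04) and Hoxc5, which was nearest to 2 intervals (269 bp over a TSS, fold 3.25, and 280 bp, fold 3.46). The 269 bp interval was centred in coding sequence of Hoxc10, at a start site annotated to Hoxc5. Around Alx1, a factor of the facial mesenchyme, an interval of 373 bp began 175 bp past the TSS. Midline, hindbrain and spinal cord factors included Lmx1b (544 bp, fold 2.71), Nkx2-2 (757 bp, fold 2.68), En1 (289 bp, fold 2.58), Lhx3 (871 bp, fold 2.58) and Lbx1 (957 bp, fold 3.05). Forkhead genes were Foxa1, Foxa2, Foxd3, Foxe1 and Foxf1, with folds of 2.68 to 3.81. The lineage bHLH genes were Neurod4, Neurod6, Olig3, Ptf1a, Tcf21, Twist1, Hes1 and Hes2. At 18 of the 64 intervals the promoter of the nearest gene carried no peak in any list. Over all 326 LGE-alone intervals this held for 19.6%, and the share over all protein-coding genes was not counted.

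Position on the chromosomes was uneven, as chromosome 2 held 40 intervals (12.3%, against 7.93% of LGE peaks) and chromosome 4 held 37 (11.3% against 6.91%). The X chromosome held 4 (1.23% against 3.36%). No interval lay on the Y chromosome or the mitochondrial genome.

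The sequence under the intervals stood between that of shared promoters and that of the larger single-list sets. Observed over expected CpG, a ratio near 1 where CpG is as frequent as the base composition allows, had a median of 0.389 over the central 300 bp, against 0.421 in CGE alone, 0.242 in CTX alone, 0.207 in MGE alone and 0.737 in all 4 lists. Intervals at promoters had a median of 0.487 and the others 0.365. A ratio of at least 0.6 with a GC content of at least 50% was found in 51 of 326 (15.6%, 12.1 to 20.0), against 25.6% in CGE alone, 3.78% in CTX alone and 3.46% in MGE alone. Among the 64 intervals nearest to transcription factor genes the count was 17 (26.6%, 17.3 to 38.5), and among the others 34 of 262 (13.0%). Over 50% of the bases were soft-masked as repeats in 8 intervals (2.45%), against 4.39% in CGE alone, 8.88% in CTX alone and 19.4% in MGE alone.

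**Figure D5:**
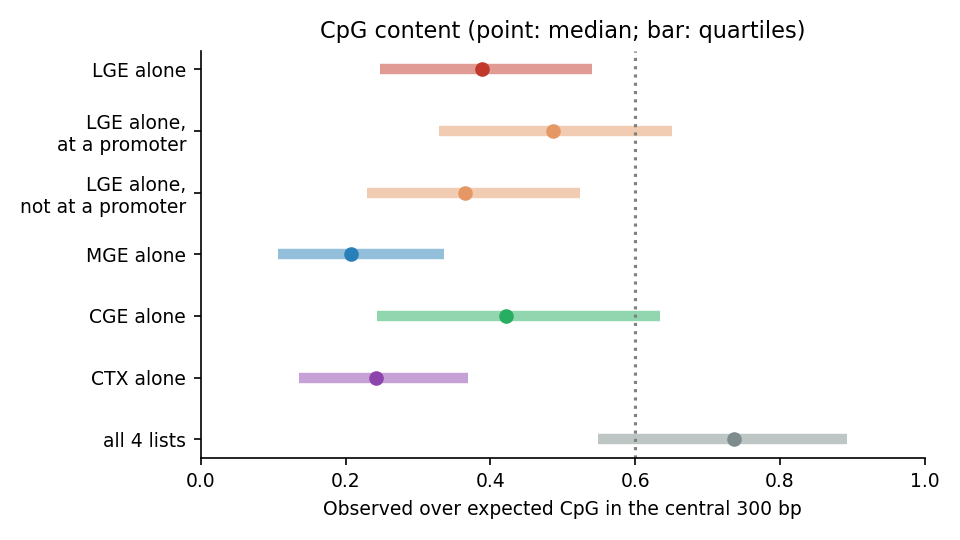
Points give the median and bars the quartiles of observed over expected CpG in the central 300 bp of each set, with the LGE-alone intervals also split by position, and the dotted line marks a ratio of 0.6. LGE alone has a median of 0.389, close to the 0.421 of CGE alone and below the 0.737 of intervals in all 4 lists.

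Short motifs were searched on both strands of the same windows. GGGCGG, which Sp and Klf factors bind, occurred in 21.5% of LGE-alone intervals (17.4 to 26.2) and in 33.7% of all union intervals. TAATTA, a core of homeodomain sites, occurred in 6.13% and 5.55%, CAGCTG, an E-box, in 16.9% and 20.1%, and CCAAT in 23.9% and 25.7%. CCGGAAG, an ETS site, occurred in 1.84% and 5.56%, and AGGGGGC, part of the CTCF core, in 10.1% and 10.6%. CTX-alone intervals held TAATTA in 15.1% of cases. Of the printed windows, Cerkl and Foxd3 held CAGCTG and CCAAT, Neurod6 held CCAAT, and Cerkl also held AGGGGGC, and no other match was found in them. A match describes letters in the window and says nothing of binding.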

How the data were processed

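H3K4me3 CUT&Tag was carried out on MGE, LGE, CGE and cortex nuclei of wild-type C57BL/6J embryos. Per the study's methods, reads were aligned to GRCm38/mm10 with Bowtie2, reads in blacklisted regions and PCR duplicates (Picard) were removed, replicates were merged with SAMtools, and MACS called broad peaks on the merged reads. Tool versions are not given in the sources used here. The authors deposited 1 peak list for each of the 4 regions, with 9 columns and no header. The deposited columns used were the peak position, the fold enrichment (a linear ratio) and the −log10 q-value. The authors' peak score column is a rounded form of the −log10 q-value and was not used, nor was their p-value column. Read counts are not given in the lists, so the precision of a single peak is unknown. The study states library depths, which differ between regions.

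Peaks were merged into union intervals when they overlapped or touched, and those with an LGE peak alone were kept. Genes, start sites and biotypes were from GENCODE M21 on GRCm38, with 55450 annotated genes. Promoters were the 2 kb upstream of any annotated TSS, with at least 1 bp shared. Distances run from the edge of the interval to the nearest TSS. Coordinates are 1-based. Sequences and soft-masking were read from the RefSeq assembly of the same build. Intervals of shares (Wilson) and medians (order statistics) are at 95%. No test was made, since each region has 1 merged list and the intervals were chosen by their peaks. Interval merging, distances and promoter assignment were tested on simulated lists, in which all 4941 intervals placed in a single list were recovered. Python 3.11.15, pandas 2.3.3, numpy 2.4.6, scipy 1.17.1 and matplotlib 3.10.9 were used.

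Named intervals were the 15 of highest −log10 q, the 10 widest, the 10 of highest fold, up to 40 at protein-coding promoters by −log10 q, those nearest to listed marker genes, the 5 closest to each side of the selection rule, and those within 10 kb of another. Other genes named, and the transcription factor families, were chosen after their values were seen. A few named intervals are not reported here. The selection rule and the gene lists were themselves chosen with earlier results of these data known. Alternatives covered the significance filter, list size, joining, overlap, chromosomes, promoter window and TSS set.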

Additional observations from a re-analysis of the deposited data

How the results depend on the processing

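The number of LGE-alone intervals depended on how weak peaks and partial overlaps were treated. From 326 it changed to 670 with every list limited to the 17284 strongest peaks by fold, to 634 when an LGE peak counted as shared only if at least 50% of its bases lay under peaks of another list, and to 557 when peaks of the other 3 lists with a −log10 q below 2 were removed. Only 12 intervals had a −log10 q of at least 5. It was 307 with a −log10 q of at least 2 in every list (163 of the original 326 were kept), 284 with joining under 1 kb and 322 on autosomes. The median width was 374 to 395 bp under the filter, joining and autosomes, and 430.0 bp with lists of equal size, an alternative chosen after seeing the data. The median TSS distance changed from 5040 bp to 8464 bp with gene 5′ ends only and to 9106 bp with protein-coding transcripts only, and was 4941 and 4932 bp under the filter and under joining. The promoter share changed from 22.7% to 30.1% with 1 kb and 36.8% with 2 kb on either side of the TSS, to 11.7% with gene 5′ ends only, to 17.8% with protein-coding transcripts only and to 31.3% with lists of equal size. In that last setting the CGE-alone share was 27.7%, below the LGE-alone share, whereas it was above it as deposited. The share of promoter intervals with a protein-coding gene changed from 78.4% to 55.3% with gene 5′ ends only. The share nearest to transcription factor genes, examined under alternatives chosen after seeing the data, changed from 19.6% to 12.4% with the filter at a −log10 q of 2, and was 18.4% with lists of equal size and 20.4% with joining. No paired analysis was possible because peaks were called on the merged reads of each region, and for the same reason no replicate could be left out. Library depths stated by the study differ between regions and the lists hold no read counts, which limits any statement that a peak is absent from another region.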
